A study of Mus musculus with 8 samples.

Results

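Caveolae are flask-shaped pits of the plasma membrane that are dense in endothelial cells. Their coat is built from caveolins, integral membrane proteins that bind cholesterol, and from cavins, cytosolic proteins that form a lattice around the bulb, while EHD2, an ATPase of the dynamin family, rings the neck and holds the pit at the surface. Caveolae buffer membrane tension and take part in transcytosis and in the control of endothelial nitric oxide synthase. The 6 genes followed here were the caveolins Cav1 and Cav2, the cavins Ptrf (Cavin1), Sdpr (Cavin2) and Prkcdbp (Cavin3), and Ehd2, out of 28014 genes in the count table. They were chosen by name, with earlier RNA levels from these cells in view that showed caveola genes high in pre-HE against aEC, so every comparison between clusters below is a description without a test, and the comparisons between genotypes start from genes known to be high in WT pre-HE cells.

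The cells were CD31+ cells sorted from the aorta-gonad-mesonephros (AGM) of E10.5 mouse embryos, where blood stem cells arise from arterial endothelium. There were 5 WT libraries (labelled C57BL/6) and 3 Meis1-flox/VE-Cre libraries (labelled Meis1-knockout), each a pool of several embryos, so p-values measure the spread between pools. In the Meis1-flox/VE-Cre embryos a Cre recombinase driven by the endothelial Cdh5 promoter removed a floxed exon of Meis1, a homeobox transcription factor, in endothelial cells and their descendants. CITE-seq (single-cell RNA-seq with antibody tags) gave 15168 cells, which the authors had assigned to 10 cell types: the endothelial clusters vEC_1 to vEC_4 and aEC, the pre-hemogenic endothelium pre-HE, the transition cells EHT, and EMP, Myeloid and Megakaryocytes.

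The labels of the clusters were checked against marker lists. In WT, the summed level of 6 artery markers was 2420 to 3188 CPM (UMIs of a gene scaled to the RNA UMIs of all cells of a cluster in a library) in pre-HE, 235 to 448 CPM in aEC and 25.1 to 113 CPM over the vEC clusters, and 4 vein markers summed to 273 to 400.4 CPM in aEC, so aEC carried both sets. The 4 vein markers had a median log2 difference of -4.01 in WT pre-HE against aEC (1 CPM added). Of these markers 2 were lower in pre-HE in every WT library, as were 15.1% of the 8387 genes compared. Levels are 3′ end UMIs and not scaled by length, so they are compared between clusters and libraries and not between genes. Runx1 and 5 other hemogenic and blood markers summed to at most 28.0 CPM in pre-HE against 573 to 735 CPM in EHT. Libraries held 651 to 2598 cells, with a median of 26572 to 28553 UMIs per cell in WT replicates 1 to 4, 12720.5 in WT replicate 5 and 9611.5 to 14895 in Meis1-flox/VE-Cre. The pre-HE cluster had 11 to 87 cells per library, and 33 barcodes occurred in more than 1 library, in 66 cells, 2 of them pre-HE. UMIs from the 3′ end of Meis1 do not read the deleted exon. Meis1 lay at 12.9 to 51.4 CPM in WT pre-HE and 9.57 to 53.0 CPM in Meis1-flox/VE-Cre pre-HE, while in EMP it was at 56.7 to 77.0 and 20.9 to 36.4 CPM, in Megakaryocytes at 79.5 to 166 and 51.7 to 71.6 CPM, and in Myeloid at means of 20.4 and 10.5 CPM. A row named CreERT2 had 0 counts in every WT library and 12, 3 and 19 counts in Meis1-flox/VE-Cre replicates 1 to 3.

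The promoters of the genes are shown because Sdpr was distributed over the clusters unlike the other members. RefSeq windows of build GRCm38.p6, the patch release of the mm10 build used by the authors, were found for 5 of the 6 genes, Ptrf as Cavin1 and Sdpr as Cavin2, with 7 windows in all. The 250 bases before each annotated start are printed 5′ to 3′ on the strand of the gene, and capitals mark matches on either strand to 5 six-letter motifs: TGACAG (MEIS), CCGGAA (ETS), TGTGGT (RUNX), GGAATG (TEAD) and GGGCGG (GC box). No matches overlapped.
Sdpr, chr1:51288876-51289125, plus strand: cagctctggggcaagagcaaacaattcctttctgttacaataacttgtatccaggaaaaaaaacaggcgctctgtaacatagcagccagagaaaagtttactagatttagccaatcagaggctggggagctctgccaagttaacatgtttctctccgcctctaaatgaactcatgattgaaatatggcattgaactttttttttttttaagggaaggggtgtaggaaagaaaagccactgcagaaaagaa
Cav1 start 1, chr6:17306085-17306334, plus strand: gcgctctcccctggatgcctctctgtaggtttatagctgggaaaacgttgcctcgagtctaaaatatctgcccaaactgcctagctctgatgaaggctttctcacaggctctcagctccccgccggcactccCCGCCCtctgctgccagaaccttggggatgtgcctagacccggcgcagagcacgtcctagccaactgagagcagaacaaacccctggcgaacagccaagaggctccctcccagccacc
Cav1 start 2, chr6:17307390-17307639, plus strand: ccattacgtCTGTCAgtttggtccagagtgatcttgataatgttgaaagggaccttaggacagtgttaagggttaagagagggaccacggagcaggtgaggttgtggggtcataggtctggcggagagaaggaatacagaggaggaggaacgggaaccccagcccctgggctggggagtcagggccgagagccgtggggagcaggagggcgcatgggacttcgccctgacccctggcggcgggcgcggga
Cav2, chr6:17280935-17281184, plus strand: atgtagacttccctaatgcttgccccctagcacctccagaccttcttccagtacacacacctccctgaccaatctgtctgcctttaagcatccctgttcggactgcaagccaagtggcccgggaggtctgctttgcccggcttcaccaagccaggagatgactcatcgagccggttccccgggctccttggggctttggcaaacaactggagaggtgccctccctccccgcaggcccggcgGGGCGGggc
Ptrf, chr11:100970618-100970867, minus strand: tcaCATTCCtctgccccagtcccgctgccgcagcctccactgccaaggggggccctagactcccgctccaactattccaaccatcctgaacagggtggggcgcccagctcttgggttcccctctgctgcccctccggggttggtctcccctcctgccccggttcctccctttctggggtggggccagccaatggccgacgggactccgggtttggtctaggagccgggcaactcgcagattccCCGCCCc
Ehd2, chr7:15967536-15967785, minus strand: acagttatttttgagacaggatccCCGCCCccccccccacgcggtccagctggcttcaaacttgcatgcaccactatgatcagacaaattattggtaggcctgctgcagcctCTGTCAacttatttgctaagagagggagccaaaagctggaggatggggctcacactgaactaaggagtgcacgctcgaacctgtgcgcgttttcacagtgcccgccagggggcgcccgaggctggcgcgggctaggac
The other Ptrf window starts 2 bases away and is not printed. The Sdpr window had a G and C content of 40.4% and 2 CG pairs, and 13.3% of the 32851 windows in the RefSeq table had no more G and C than that. The other windows had 58.0% to 67.6%, with 10 to 12 CG pairs, against a median of 52.4% over the table. A GC box was present in the first Cav1 window and in those of Cav2, Ptrf and Ehd2, as in 32.7% of all windows. The MEIS letters were present 241 to 236 bases before the second Cav1 start and 138 to 133 bases before that of Ehd2, and 15.9% of all windows held them. The TEAD letters occurred in the Ptrf window (12.6% of all windows), while the ETS letters (12.0%) and the RUNX letters (14.05%) occurred in none of these windows, and the Sdpr window held no match. Cav2 and Cav1 are neighbours on chromosome 6 with starts 25150 bases apart.

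Cav1, the principal caveolin of endothelium, was highest in pre-HE. It stood at 99.5, 117, 84.3, 154 and 77.2 CPM in the pre-HE cells of WT replicates 1 to 5, against 28.7, 36.4, 26.5, 85.0 and 21.1 CPM in their aEC cells. Each library was higher in pre-HE than in its own aEC, but the 2 ranges overlapped because of WT replicate 4, which was above the other WT libraries in all 6 endothelial clusters, by 1.63 times their mean in pre-HE and up to 5.41 times in vEC_4. The mean log2 difference was 1.54 ± 0.39 (SD, n = 5, 1 CPM added), and 1.72 without WT replicate 4. In the vEC clusters Cav1 averaged 18.7 to 32.2 CPM, and neighbouring clusters overlapped in their ranges. Cav2, which forms mixed oligomers with Cav1, followed the same order without the outlying library. It lay at 86.6, 70.02, 51.9, 75.9 and 51.5 CPM in WT pre-HE and at 18.9 to 31.4 CPM in aEC, with no overlap, a log2 difference of 1.36 ± 0.15 (SD, n = 5). The vEC clusters averaged 21.5 to 23.5 CPM of Cav2, inside the range of aEC. The third caveolin, Cav3 of muscle, had a mean of 0 CPM in both clusters.

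The cavins split into a pair that was present throughout the endothelium and a member that was not. Ptrf, the cavin required to form the coat, was at 103, 93.4, 45.4, 96.5 and 122 CPM in WT pre-HE against 27.4 to 52.1 CPM in aEC, a log2 difference of 1.28 ± 0.47 (SD, n = 5). WT replicate 3, with 11 pre-HE cells and 7 Ptrf counts, was the low value, and it alone lay within the aEC range. Ptrf also varied over the vEC clusters, from 26.7 and 22.8 CPM in vEC_1 and vEC_2 to 13.6 and 12.3 CPM in vEC_3 and vEC_4, and the last pair lay below aEC in range. Prkcdbp was the member with the most counts (1915 in WT pre-HE). It stood at 761, 794, 681, 871 and 811 CPM in WT pre-HE and at 279 to 387 CPM in aEC, a log2 difference of 1.31 ± 0.15 (SD, n = 5), and the 2 ranges did not overlap. The vEC clusters averaged 229.9 to 303 CPM of Prkcdbp. The ranges of vEC_2 and vEC_3 lay below that of aEC, and those of vEC_1 and vEC_4 overlapped it.

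Sdpr differed in kind from the other members. In the WT aEC cells of replicates 1 to 5 there were 3, 2, 0, 10 and 3 counts, which is 0 to 1.48 CPM, and the 0 in replicate 3 allows up to 2.74 CPM. The pre-HE cells of the same libraries held 173, 85, 37, 446 and 43 counts, or 319, 397, 239.9, 353 and 277 CPM. Pooled over the WT libraries the ratio was 311 (exact 95% interval 196 to 528, counting error only), with 784 counts in pre-HE and 18 in aEC. The Meis1-flox/VE-Cre libraries gave a pooled ratio of 320.5 (95% interval 122 to 1195). The clusters vEC_1 and vEC_2 were as low as aEC, with means of 1.01 and 0.724 CPM, vEC_3 averaged 6.92 CPM and vEC_4 39.9 CPM (range 24.8 to 71.6), so Sdpr had a second, lower site in vEC_4. Megakaryocytes were the only cluster as high as pre-HE, with 659, 361, 304 and 423 CPM in WT replicates 1, 2, 4 and 5 (replicate 3 had 5 such cells and was left out), and their range overlapped that of pre-HE.

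Ehd2, the neck ATPase, had the smallest difference between the clusters. WT pre-HE had 112, 145, 90.8, 123 and 199.6 CPM and aEC 82.7 to 93.3 CPM, a log2 difference of 0.56 ± 0.45 (SD, n = 5) that ranged from 0.09 in replicate 3 to 1.26 in replicate 5. In the Meis1-flox/VE-Cre libraries Ehd2 was at 158, 62.2 and 70.7 CPM in pre-HE against 90.3, 84.4 and 104 CPM in aEC, higher in 1 library and lower in 2. The vEC clusters averaged 72.3 to 84.7 CPM, with ranges that overlapped each other and, except for vEC_3, the range of aEC.

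**Figure D1:**
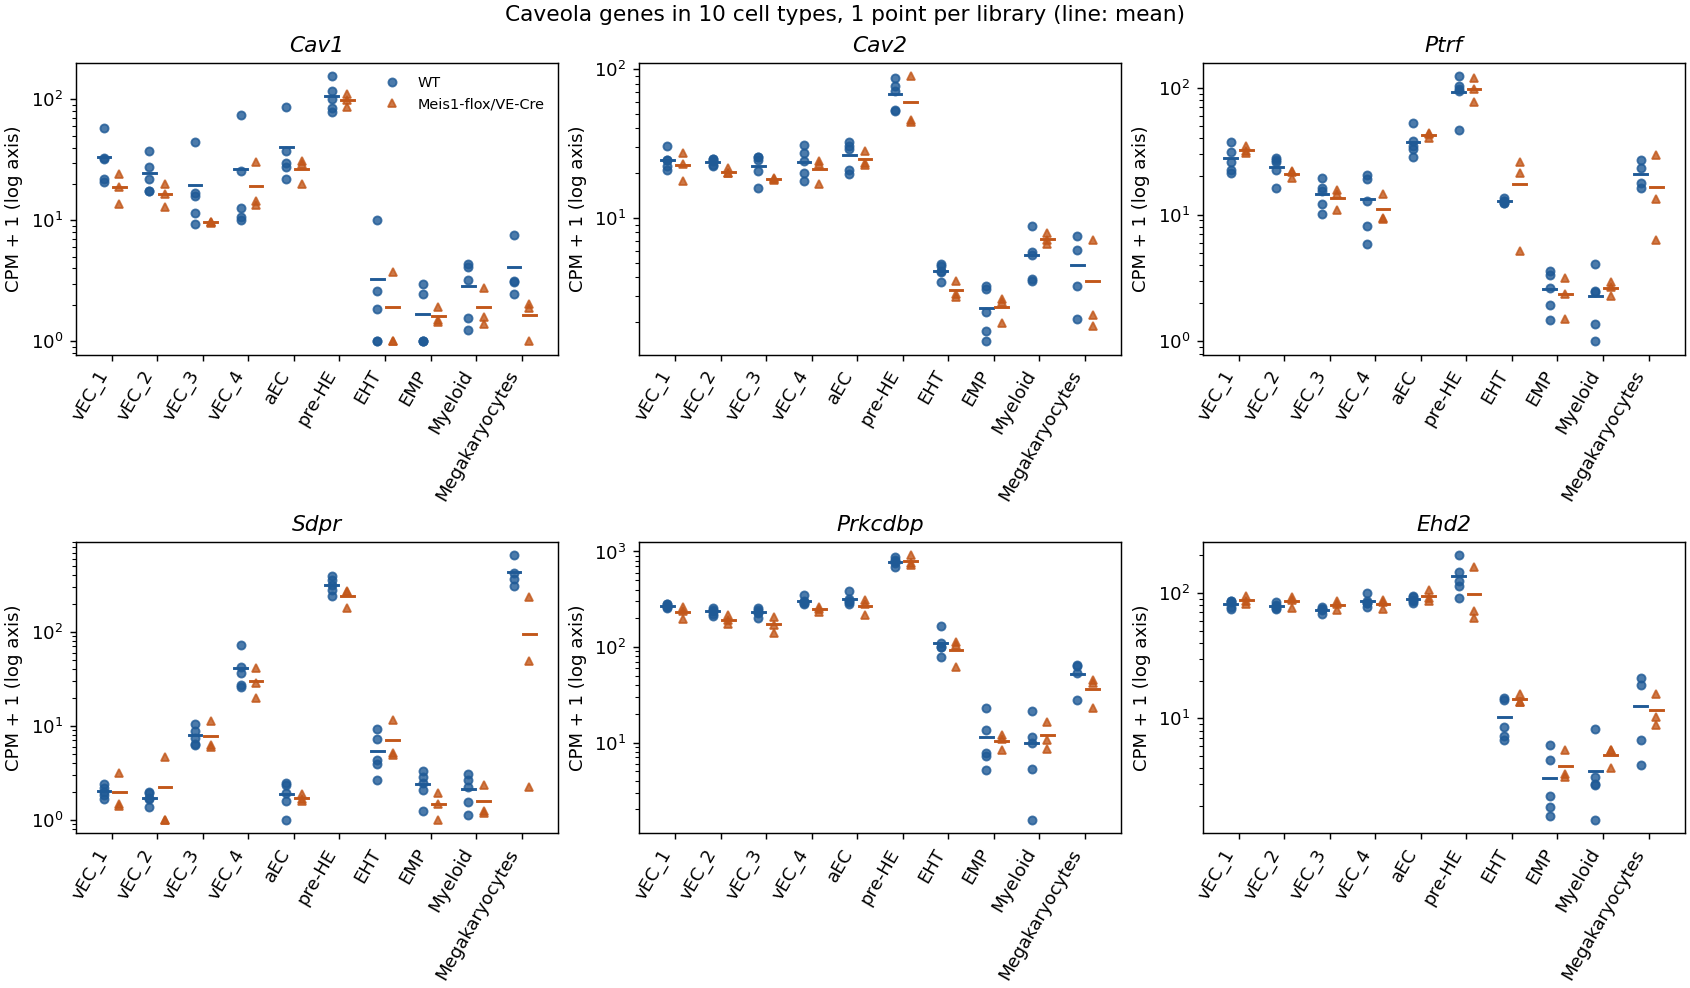
Level of each gene by cell type on a log axis of CPM + 1, with 1 point per library (circles WT, triangles Meis1-flox/VE-Cre) and a line at the mean. In WT, the means of Cav1, Cav2, Ptrf, Prkcdbp and Ehd2 are highest in pre-HE and lie below those of the endothelial clusters in EHT (Ptrf there overlaps vEC_3 and vEC_4), Ehd2 of Meis1-flox/VE-Cre is lower in pre-HE than in aEC in 2 of 3 libraries, and Sdpr is near 1 CPM in aEC and high in pre-HE and Megakaryocytes.

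Compared on the same scale, all 6 members were higher in pre-HE than in aEC in all 5 WT libraries, and 3 of them (Cav2, Sdpr and Prkcdbp) were over 1 log2 unit higher in each. Of the 8387 genes with a mean of at least 10 CPM in either cluster, 21.7% were higher in every WT library and 4.42% were over 1 log2 unit higher in each. Since the members were listed for this contrast, nothing is read from those shares. The median log2 difference was 1.33 over the members and 0.06 over all these genes. With TMM scaling both medians fell, to 1.10 and -0.18, and Ehd2 was then higher in 4 of 5 WT libraries. The 5 members other than Sdpr moved by amounts that some general endothelial genes also reached. Over the 6 endothelium markers the median log2 difference was 0.89, and 5 of them were higher in every WT library. Cdh5 (VE-cadherin) went from a mean of 350.01 to 1075 CPM, a log2 difference of 1.61 ± 0.19, and Tek, an angiopoietin receptor, differed by 2.10 ± 0.33. Pecam1, which encodes the CD31 used for sorting, differed by 0.94 ± 0.27 (all SD, n = 5). Relative to Cdh5, only Sdpr had a larger step in every one of the 5 libraries.

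**Figure D2:**
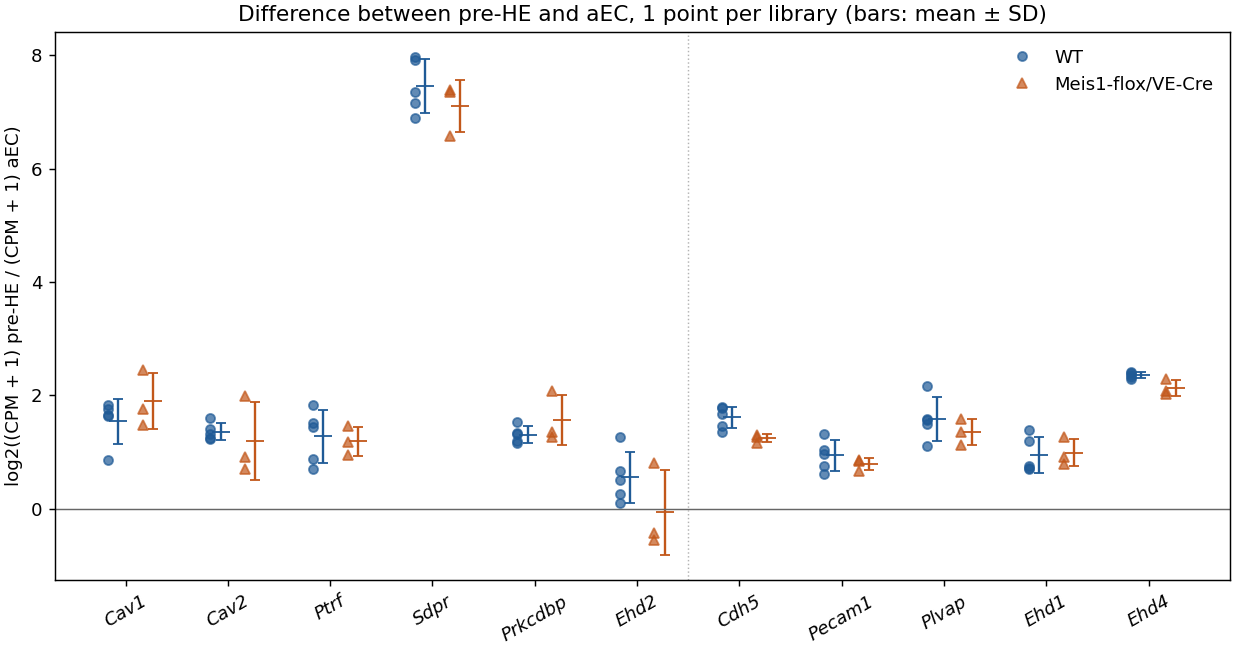
Difference between pre-HE and aEC in log2((CPM + 1)/(CPM + 1)), 1 point per library (circles WT, triangles Meis1-flox/VE-Cre) with mean ± SD, for the 6 caveola genes to the left of the dotted line and Cdh5, Pecam1, Plvap, Ehd1 and Ehd4 to the right. Sdpr lies near 7, Ehd2 crosses 0 in Meis1-flox/VE-Cre, and the WT means of the other 4 caveola genes lie between those of Pecam1 (0.94) and Cdh5 (1.61).

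The members were then counted cell by cell, each cell thinned to 5000 UMIs so that depth did not set the shares. A UMI of Prkcdbp was found in 94.2% ± 2.32 of WT pre-HE cells (SD over 5 libraries) and in 72.6% ± 3.35 of aEC cells. Sdpr was found in 67.3% ± 13.1 of pre-HE cells and 0.702% ± 0.462 of aEC cells, and in 0.411% of Myeloid cells. The Myeloid share was taken as a background by assumption, since free RNA was not measured. The aEC share of Sdpr differed from this background by less than the SD over libraries, so it is not read as expression. Without thinning, at a median of 12884 UMIs per cell in pre-HE, 18343 in aEC and 39173 in Myeloid, the Sdpr shares were 81.6%, 1.47% and 2.53%. Ehd2 was detected in 55.5% ± 8.39 of WT pre-HE cells and 34.5% ± 3.81 of aEC cells, Ptrf in 36.8% ± 5.45 and 16.02% ± 4.70, Cav1 in 35.6% ± 9.90 and 14.7% ± 9.09, and Cav2 in 31.4% ± 9.37 and 10.9% ± 3.99. The Myeloid shares of these 4 genes were between 0.311% and 1.48%, and that of Prkcdbp was 2.93%.

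Over the 6 genes together, 73.1% of 171 thinned WT pre-HE cells had a UMI of at least 3 of them, compared with 17.4% of 886 aEC cells, 12.9% of 808 vEC_4 cells and 1.23% of 325 EHT cells. These shares pool the cells of all WT libraries, so they carry no spread between pools. WT replicate 4 gave 87 of the pre-HE cells and 319 of the aEC cells. A UMI of all 6 was seen in 6 WT pre-HE cells and in no WT cell of the other clusters. The genes were listed as high in pre-HE, and Sdpr was found in only 0.702% of thinned WT aEC cells. These counts are therefore not read as a joint appearance of the 6 genes. No WT pre-HE cell lacked all 6, while 12.8% of aEC cells and 61.2% of EHT cells did. In Meis1-flox/VE-Cre, 57.8% of 64 pre-HE cells had at least 3, after 13 of 77 cells under 5000 UMIs were left out. Within pre-HE the level of any member in a cell said little about the level of another: median correlations over the 8 libraries ran from -0.09 (Sdpr with Ehd2) to 0.24 (Ptrf with Ehd2), on sparse counts and 11 to 87 cells per library.

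**Figure D3:**
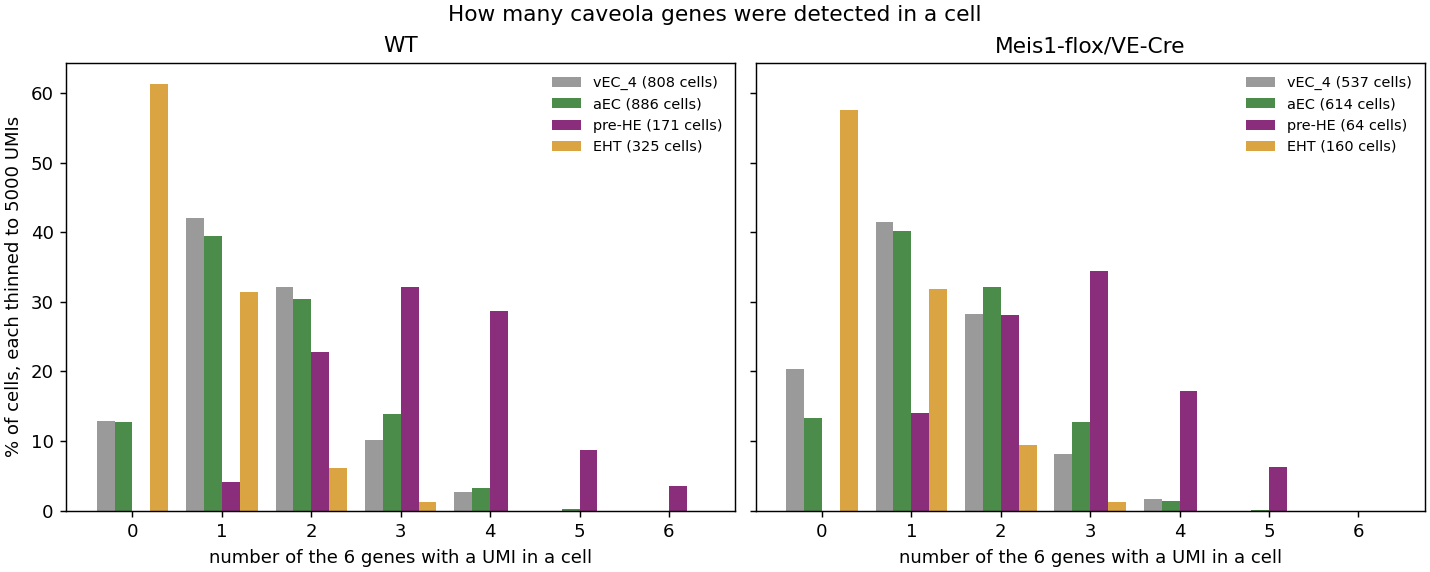
Share of cells (vertical axis, %) by the number of the 6 caveola genes with a UMI (horizontal axis), cells thinned to 5000 UMIs, for vEC_4, aEC, pre-HE and EHT in WT and in Meis1-flox/VE-Cre. In both genotypes pre-HE cells peak at 3 genes, vEC_4 and aEC cells at 1 and EHT cells at 0. Cells are pooled over libraries.

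All 6 members were lower in EHT than in pre-HE in every WT library, each by over 1 log2 unit, where 9.78% of 8752 genes were over 1 log2 unit lower in every library. Cav1 went from a mean of 106 to 2.29 CPM and was at 0 in WT replicates 1 and 2. Cav2 went from 67.2 to 3.42 CPM, Sdpr from 317 to 4.47 CPM and Ehd2 from 134 to 9.21 CPM, which is 5.09%, 1.41% and 6.86% of their pre-HE levels. The 44 Sdpr counts of WT EHT lay in 24 of 326 cells, with at most 8 in a cell. Ptrf and Prkcdbp kept more, at 12.7% (11.7 CPM) and 14.1% (110.5 CPM), close to the 12.5% of Cdh5. In EMP and Myeloid cells the members' WT means were between 0.687 and 10.3 CPM. Megakaryocytes had another combination, with WT means of 437 CPM for Sdpr, 51.6 for Prkcdbp, 20.1 for Ptrf and 11.6 for Ehd2. Cav1 was at 3.08 CPM and Cav2 at 3.82 CPM there. The cavins thus lay above EMP and Myeloid in range, while both caveolins were near the level of those blood clusters.

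Sdpr was detected in part of the vEC_4 cells, and on such sparse counts a cell without a UMI is not read as lacking it. A Sdpr UMI was present in 237 of 815 WT cells (29.1%) and 97 of 557 Meis1-flox/VE-Cre cells (17.4%), whose median depths were 17722 and 8218 UMIs per cell. At 5000 UMIs the shares were 15.7% ± 4.68 (SD, n = 5) and 12.2% ± 3.97 (SD, n = 3). Gja5, an arterial connexin, was found in 97.9% of the Sdpr-positive and 92.3% of the other WT pre-HE cells. In WT vEC_4 it was found in 2.11% of the Sdpr-positive and 1.21% of the other cells. In Meis1-flox/VE-Cre the Gja5 shares were 97.8% and 65.6% in pre-HE, and 4.12% and 0.217% in vEC_4. The cells were not thinned for Gja5, and the part of depth was not tested. When vEC_4 cells were split by Sdpr, a split chosen after the values were seen, Prkcdbp was higher in Sdpr-positive cells in 8 of 8 libraries (0.27 ± 0.12 log2) and Cav1 in 7 of 8 (0.47 ± 0.50), while Cav2, Ptrf and Ehd2 were higher in 4, 3 and 4 of 8. The split used cells without thinning, and the depth of Sdpr-positive and other cells was not compared. The share of all genes with such a difference was not computed, so nothing is read from these counts about the members.

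Other genes of the caveola and of the competing uptake routes gave a mixed picture in WT pre-HE against aEC, where 21.7% of all genes were higher and 15.1% lower in every library. Of 11 genes of the caveolar neck and its tethers, 6 were measured at 10 CPM or more, of which 3 were higher and 1 lower in every WT library. Ehd4, a membrane-bending relative of Ehd2, went from 66.3 to 344 CPM (2.36 ± 0.05 log2, SD, n = 5), a larger step than that of Ehd2, and Ehd1, of the recycling endosome, differed by 0.95 ± 0.32. Dnm2, the dynamin that severs membrane necks, was lower in 5 of 5 libraries (51.4 to 29.6 CPM). Of 7 endothelial proteins placed in caveolae, 4 of 6 measured were higher in every library, led by Aqp1, a water channel (0.384 to 37.4 CPM), and Plvap, which forms the diaphragm (451 to 1382 CPM). Flot1, of the flotillin microdomains, was at 33.2 and 32.7 CPM. Of 15 clathrin-route genes, all measured, 6 were higher and 2 lower in every library with a median log2 difference of 0.17, with Dab2 (an adaptor, 1.36) and Itsn1 (a scaffold, 0.81) highest and Eps15 (-0.99) and Epn1 (-0.36) lowest. Of 8 genes of membrane cholesterol, Npc1 (lysosomal export, 1.68) and Sqle (synthesis, 0.26) were higher in every library and Abcg1 (efflux) was lower by a log2 difference of -2.24.

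Markers of other cells that moved with pre-HE were examined beside these values. The mural markers Myh11, Pdgfrb, Cspg4, Des and Kcnj8 were at 0 in every WT pre-HE library, and the 7 mural markers together summed to 0 to 5.53 CPM there, and to 8.84 to 29.7 CPM in Meis1-flox/VE-Cre pre-HE, where Cnn1 was the only marker above 0. The 6 fibroblast markers summed to 0 to 12.97 CPM in WT pre-HE and 0.587 to 1.83 CPM in aEC. The 6 mesothelial markers summed to at most 1.58 CPM in WT and 4.95 CPM in Meis1-flox/VE-Cre pre-HE. In contrast, the smooth muscle actin genes Acta2, Tagln and Myl9 summed to 163 to 857 CPM in WT pre-HE and to 13.9 to 25.3 CPM in aEC, and the endocardial marker Npr3 differed from aEC by 3.67 ± 0.36 log2 (SD, n = 5). Of the 3 endocardial markers, all measured, 2 were higher in every WT library, as were 21.7% of all genes. Leaving out cells with a UMI of a mural, fibroblast or mesothelial marker left the step of Sdpr at 7.39 log2 and that of Cav1 at 1.66 log2. The part of the actin and endocardial genes in these values was not tested.

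The genes closest to each member were ranked by Pearson's r of log2(CPM + 1) over 79 sums of a library and a cell type, among 11315 genes. These sums share libraries and depth, and the values are a description. Prkcdbp was closest to Ecscr, Ramp2 and Plvap (all r = 0.98) and Ehd2 to Dbn1 and Emcn (0.98) and Crip2 (0.97). Cav1 was closest to Sparcl1, Igfbp3 and Mcam (0.94, 0.94 and 0.94), Cav2 to Acvrl1, App and Anxa2 (all 0.94) and Ptrf to Gpx8, Myct1 (both 0.92) and Maged2 (0.91). Sdpr had weaker neighbours, Bcr (0.86), Ltbp1 (0.86) and Aff4 (0.85). Among the members, r ran from 0.72 (Cav2 with Ptrf) to 0.94 (Prkcdbp with Ehd2) without Sdpr, and from 0.20 to 0.44 between Sdpr and the rest.

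Whether loss of Meis1 changed these genes was tested on summed counts in each of the 10 cell types (edgeR quasi-likelihood test, 5 WT against 3 Meis1-flox/VE-Cre libraries, 4 against 3 in Megakaryocytes). No member passed an adjusted p of 0.1 in any cell type in 47 tests of a member. By edgeR 8 of the 47 (17%) had an unadjusted p under 0.05, as did 12.5% of all gene tests in these cell types, and by DESeq2 6, with 0 called. For 2 of the 47, DESeq2 gave no adjusted p. Over all genes, DESeq2 called 0.115% (aEC) to 5.16% (EMP), and 4.35% (pre-HE) to 14.2% (EMP) had an unadjusted p under 0.05. The share of all genes called by edgeR was 0.489% of 3682 in pre-HE, 0% in aEC, vEC_1, vEC_3 and vEC_4, 0.0187% in vEC_2, 0.127% in EHT, 4.74% in EMP, 3.26% in Myeloid and 0.206% in Megakaryocytes. In pre-HE, Sdpr was at 272, 177 and 265 CPM in Meis1-flox/VE-Cre against 239.9 to 397 CPM in WT, with 1 of the 3 libraries below the WT range. The log2 fold change of Sdpr was -0.41 (SE 0.21, edgeR adjusted p = 0.729). That of Cav2 was -0.38 (SE 0.32), of Cav1 -0.21 (SE 0.27), of Ehd2 -0.34 (SE 0.30), of Prkcdbp 0.06 (SE 0.19) and of Ptrf 0.08 (SE 0.28), with edgeR adjusted p between 0.877 and 0.990. With 1 library left out at a time, Ehd2 ranged from -0.94 to -0.038 and Cav2 from -0.72 to -0.19. The same pre-HE comparison called Acta2 (2.01, SE 0.39, edgeR adjusted p = 0.0191), Myl9 (1.40, SE 0.26, 0.0154) and Tagln (1.45, SE 0.34, 0.0840), which were higher in Meis1-flox/VE-Cre.

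The step from aEC to pre-HE was also compared between genotypes, with library as a block. Of 9489 genes, 0.0527% were called and 0 of the 6 members, none of which had an unadjusted p under 0.05. The difference in step was 0.54 (SE 0.32) for Cav1, -0.45 (SE 0.28) for Ehd2, 0.24 (SE 0.16) for Prkcdbp, -0.23 (SE 0.37) for Cav2 and -0.05 (SE 0.30) for Ptrf, with edgeR adjusted p of 0.993 to 1.0. With 1 library left out at a time, that of Ehd2 ranged from -1.06 to -0.23 and that of Cav1 from 0.19 to 0.79. For Sdpr it was -0.06, and -0.34 to 0.34 with 1 library left out at a time. The aEC cells held 0 to 10 Sdpr counts per library. The SE of the Sdpr value, 2.84, was computed back from an F statistic near 0 and is not read. The shares of cells with a UMI at 5000 UMIs gave 0 of 12 differences at an adjusted p under 0.05 by exact permutation of the libraries (two-sided, smallest possible p 0.0179). The lowest was Prkcdbp in pre-HE, at 94.2% in WT and 98.6% in Meis1-flox/VE-Cre (exact permutation p = 0.0714, adjusted p = 0.429). Sdpr was in 67.3% and 55.3% of pre-HE cells (exact permutation p = 0.107, adjusted p = 0.429).

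Cav1 was lower in Meis1-flox/VE-Cre in all 7 cell types where it was tested, without a call. In vEC_3 it was at 8.59, 8.69 and 8.69 CPM against 15.9, 14.9, 10.5, 43.8 and 8.24 CPM in WT, a log2 fold change of -1.20 (SE 0.48, edgeR adjusted p = 0.306). It was called there without WT replicate 5 (-1.38, edgeR adjusted p = 0.0771), the WT library closest in depth to the Meis1-flox/VE-Cre libraries, in a fit that called 8.3% of all genes against 0% with it, and was -0.50 without WT replicate 4. Against WT replicate 5 alone, the log2 fold change of Cav1 was 0.07 in vEC_3, 0.94 in vEC_4 and 0.29 in aEC. Depth per cell moved with genotype in the other 4 WT libraries, and with it as a covariate the values were -0.08, 0.39 and 0.21. Prkcdbp in vEC_3 stood at 171, 205 and 140.2 CPM against 199.7 to 253 CPM in WT (-0.40, SE 0.11, edgeR adjusted p = 0.209), and was called there too without WT replicate 5 (-0.44, edgeR adjusted p = 0.0432), as 1 of 3 members among that 8.3%.

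In Megakaryocytes the Meis1-flox/VE-Cre libraries stood at 48.4, 235 and 1.23 CPM of Sdpr, each below the WT range of 304 to 659 CPM, and differed widely among themselves. The log2 fold change was -2.22 (SE 0.78, edgeR adjusted p = 0.394), and without Meis1-flox/VE-Cre replicate 2 it was -4.01 (edgeR adjusted p = 0.0558). Erythroid markers moved with it: Hbb-y was at 14006, 3967 and 15135 CPM in the Meis1-flox/VE-Cre Megakaryocytes and at 58.8 to 3524 CPM in WT, and Pf4, a platelet chemokine, at 11485, 18598 and 10868 CPM against 17654 to 34746 CPM. The part of these in the Sdpr value was not tested.

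**Figure D4:**
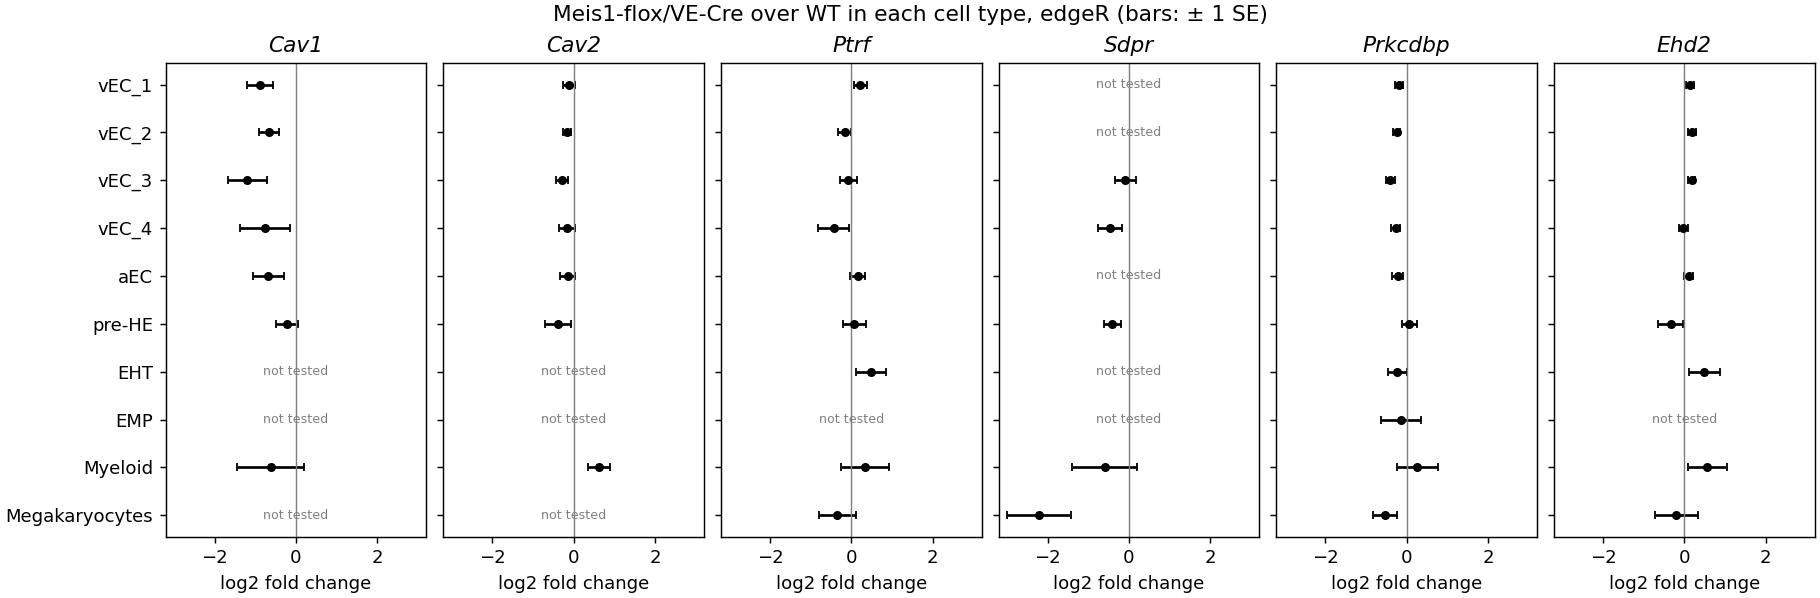
Log2 fold change of Meis1-flox/VE-Cre over WT (horizontal axis, edgeR, bars ± 1 SE) for each gene in each cell type. Cav1 lies below 0 in all 7 cell types tested, the widest value is Sdpr in Megakaryocytes (-2.22), and none passed the adjusted threshold.

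The CD44 antibody tag, which took no part in the clustering, was read in WT replicate 5 and the 3 Meis1-flox/VE-Cre libraries. Its median was 1 to 4 counts in aEC cells and 20 to 40 counts in pre-HE cells. Within aEC, the 25% of cells with the highest tag counts were compared with the other cells of the same library. Prkcdbp was lower in the high-tag cells in 4 of 4 libraries, by -0.15 ± 0.06 log2 (exact sign-flip permutation p = 0.125, the smallest this design allows). Cav1 was higher in 2 of 4 libraries, Cav2 and Ptrf in 1 and Ehd2 in 3, with exact sign-flip permutation p between 0.375 and 0.75. Sdpr was not compared, since its aEC counts in these libraries are too few. Cells with a high tag also carried more RNA in 4 of 4 libraries (11221.5 and 9338 UMIs, as medians of high-tag and other cells in WT replicate 5), and the part of depth was not tested.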

How the data were processed

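The table deposited by the authors held whole UMI counts of 28014 genes and 6 antibody tags in 15168 cells of 8 libraries, with the authors' cell type for each cell. Per the labels and the study's methods, droplets were read with Cell Ranger 3.0.2 on mm10, cells with few detected genes or a high mitochondrial share were removed (the fewest genes in a deposited cell were 2001), and the libraries were integrated and clustered on RNA in Seurat before clusters were named by hand. Columns that belong to no sample numbered 0. The 6 genes, the other gene lists and the comparisons were chosen with earlier results of these data known.

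Counts were summed per library and cell type (at least 10 cells) and scaled to CPM, with 1 CPM added before log2. Clusters were compared without a test. Genotypes were tested on the sums over all genes with edgeR 4.0.16 (quasi-likelihood, TMM, filterByExpr, adjusted p under 0.1, Benjamini-Hochberg), with DESeq2 1.42.0 as an alternative. Cells were thinned to 5000 UMIs for shares, which were compared by exact permutation, and correlations are Pearson's r. Intervals and floors (3 counts) cover counting error only. Each edgeR SE was computed back from the fold change and the F statistic. Scrublet (scanpy 1.11.5) marked 83 cells (0.547%) as doublets, none in pre-HE and 15 of 488 (3.07%) in EHT, and these were kept except in an alternative. The tests were tried on simulated data. In the promoters, both strands were searched. Besides the 6 genes, the text names up to 2 rises and 2 falls per list with 1 direction in every WT library, list genes called between genotypes and the 3 nearest patterns per member; Flot1, Cav3, Tek, Npr3, Gja5, Hbb-y and Pf4 were named after their values were seen. Replicate numbers were shared by both genotypes but name no common embryo, litter or day.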

Additional observations from a re-analysis of the deposited data

Results flagged for a closer look

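In 41 groups of 5 WT libraries (a member in a cell type), the highest or lowest library was compared with the spread of the other 4, and chance marks about 1 group in 20. Cav1 in WT replicate 4 stood apart in 3 cell types: it was at 43.8 CPM in vEC_3, where the other WT libraries reached at most 15.9 CPM, at 73.9 CPM in vEC_4 against at most 24.4 CPM, and at 85.0 CPM in aEC against at most 36.4 CPM. The other WT libraries of vEC_3 had a mean of 12.4 CPM. The row named CreERT2, which no comparison used, had 34 counts over the Meis1-flox/VE-Cre libraries and 0 counts in every WT library.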

How the results depend on the processing

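No member passed the threshold in the genotype comparison as reported, and 16 counts rose above 0 under an alternative. Without the filter on low counts, edgeR called 1 member in vEC_1 (Cav1), 2 in vEC_3 (Cav1 and Prkcdbp) and 1 in Megakaryocytes (Sdpr), where 1.64% to 1.73% of all genes were called. With the replicate number as a block on libraries 1 to 3 of each genotype, it called 2 members each in vEC_1, vEC_2 and vEC_3 and 1 each in vEC_4 and Myeloid, lower except Ptrf in vEC_1 and Ehd2 in Myeloid, while 7.37% to 13.8% of all genes were called in these cell types. The same libraries without the block, an alternative added after the data were seen, gave 1 in vEC_1, 2 in vEC_3 and 1 in Myeloid (5.59% to 11.6% of all genes). The numbers were not treated as a pairing, since same-numbered libraries correlated by 0.02 to 0.04 in pre-HE, -0.01 to 0.22 in aEC, -0.05 to 0.20 in vEC_1 and -0.18 to 0.15 in Myeloid. Leaving out 1 library at a time gave 0 to 1 in vEC_1 and vEC_2, 0 to 3 in vEC_3 and 0 to 1 in Myeloid, with calls without WT replicate 5 (8.16% to 12.3% of all genes), and 0 to 1 in Megakaryocytes, with the call without Meis1-flox/VE-Cre replicate 2 (0.875%).

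In 27 cases the direction of a fold change turned, none of them a call. With median UMIs per cell as covariate, the log2 values were 0.21 and 0.41 for Cav1 in aEC and pre-HE, 0.27 and 0.35 for Cav2, and -0.24 for Ptrf in pre-HE. With WT replicate 5 as the only WT library they were 0.29 and 0.36 for Cav1, 0.30 and 0.10 for Cav2, and -0.30 for Ptrf. In pre-HE, Cav1 was 0.012 with the replicate block and 0.0091 in the same libraries without it. With at least 20 cells per sum, Ptrf was -0.032 and Prkcdbp -0.16. Leave-one-out ranges crossed 0 for Ehd2 in aEC (-0.014 to 0.18), for Cav1 (-0.30 to 0.0496), Ptrf (-0.11 to 0.26) and Prkcdbp (-0.092 to 0.15) in pre-HE, and for the step difference of Cav2 (-0.59 to 0.021), Sdpr (-0.34 to 0.34) and Ptrf (-0.24 to 0.075). Taking a larger share of aEC cells as high in CD44 tag gave 0.19 for Sdpr, on too few counts to be read. The causes were not tested. The WT step from aEC to pre-HE kept its direction for each member's mean, and that of Sdpr was 8.81 with 0.1 CPM added and 5.76 with 5 CPM. In aEC a library held at most 10 Sdpr counts, and WT aEC held 18 in 16655098 UMIs.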
